A study of Homo sapiens with 9 samples.

Results

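Interferon-stimulated genes were followed in A2780 cells, an established human ovarian carcinoma line, that were either left untreated or exposed for 24 h to 8 nM or 80 nM DIG-MSK. DIG-MSK is an analogue of mithramycin, an antibiotic that binds C/G-rich DNA. Each of the 3 groups had 3 biological replicates, each on its own one-colour Agilent array, and the labels name no other agent and no genetic change in any group. All cells were of 1 line and 1 time was sampled. The genes were 44 well-known targets of interferon signalling, chosen by name, and a probe was assigned to a gene when the transcript it was designed on belonged to that gene. Of the 44, 43 had at least 1 probe on the array and 54 probes in all, with IFI27 the gene without a matched probe. To be tested, a probe had to lie well above background on every array of some group, which left 33 of the 43 genes among 21813 genes tested in all. The other 10 genes were IRF7, OAS1, MX2, GBP2, HERC6, RSAD2, CMPK2, SAMD9, IFI44 and IFI44L, and 6 of them (IRF7, OAS1, RSAD2, SAMD9, IFI44 and IFI44L) were above background on no array.

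Interferons are secreted proteins through which cells warn each other of viral infection. Type I interferons bind the receptor formed by IFNAR1 and IFNAR2, whose kinases JAK1 and TYK2 activate STAT2. With IRF9 it takes part in a complex that enters the nucleus and binds the interferon-stimulated response element in the promoters of target genes, whereas the response to interferon gamma acts through the gamma-activated sequence. The target genes encode sensors of foreign nucleic acid, enzymes and membrane proteins that restrict viruses, and factors that strengthen or end the response. Many tumour cell lines express a number of these genes without added interferon.

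Promoters of 35 of the 44 genes were available from RefSeq (GRCh38.p14), each running from 250 bases before to 50 after an annotated start, and 46 such windows belonged to them because some genes have several starts. No window was available for GBP2, IFIT2, IFITM2, IRF7, MX2, OAS2, OASL, TRIM22 and USP18. The core of the response element was searched on both strands as GAAA, any pair of bases, and GAAA. It lay in 60.9% of the 46 windows and in 3.57% of all 35116 promoters of the same length. The gamma-activated sequence, searched as TTCNNNGAA, lay in 23.9% of the windows and in 7.66% of all promoters. The GC box, searched as GGGCGG on both strands, is the motif bound by Sp1, a factor whose C/G-rich sites mithramycins are known to occupy. It lay in 45.7% of the windows and in 45% of all promoters. Counted by gene, 24 of the 35 genes held a response element core, 10 a gamma-activated sequence and 19 a GC box. Neighbouring cores, or a core and a gamma-activated sequence, can share bases, and each was counted as a match of its own.

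Windows of 6 genes are shown because they hold different numbers of these motifs and the genes took different courses at 80 nM. The level of IFIH1 fell the most of the 4 nucleic acid sensors, CXCL10 encodes a chemokine whose level fell to background, ISG15 encodes the ubiquitin-like modifier and fell, IRF9 fell and holds no core, and IFIT1 and OAS3 did not fall. They lie at chr2:162318635-162318934, minus strand (IFIH1), chr4:76023448-76023747, minus strand (CXCL10), chr1:1013247-1013546, plus strand (ISG15), chr14:24161015-24161314, plus strand (IRF9), chr10:89392373-89392672, plus strand (IFIT1) and chr12:112938224-112938523, plus strand (OAS3). Capitals mark matches to the response element core, on either strand and written in the direction of the gene.
IFIH1: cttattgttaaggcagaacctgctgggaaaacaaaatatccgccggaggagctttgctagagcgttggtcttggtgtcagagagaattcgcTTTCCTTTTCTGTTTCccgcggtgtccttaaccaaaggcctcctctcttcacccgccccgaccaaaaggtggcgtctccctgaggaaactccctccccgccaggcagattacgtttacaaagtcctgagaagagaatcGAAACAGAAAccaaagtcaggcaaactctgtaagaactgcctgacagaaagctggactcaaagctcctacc
CXCL10: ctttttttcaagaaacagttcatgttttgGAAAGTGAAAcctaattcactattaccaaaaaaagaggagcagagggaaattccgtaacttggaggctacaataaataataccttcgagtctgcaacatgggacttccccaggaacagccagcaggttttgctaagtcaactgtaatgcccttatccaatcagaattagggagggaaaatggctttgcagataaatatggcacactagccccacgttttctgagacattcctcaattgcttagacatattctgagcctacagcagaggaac
ISG15: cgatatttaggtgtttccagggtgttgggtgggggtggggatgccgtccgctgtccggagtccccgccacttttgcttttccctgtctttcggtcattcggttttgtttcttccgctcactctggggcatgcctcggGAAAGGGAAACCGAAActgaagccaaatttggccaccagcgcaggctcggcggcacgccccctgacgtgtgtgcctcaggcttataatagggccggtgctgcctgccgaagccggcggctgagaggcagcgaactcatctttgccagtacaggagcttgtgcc
IRF9: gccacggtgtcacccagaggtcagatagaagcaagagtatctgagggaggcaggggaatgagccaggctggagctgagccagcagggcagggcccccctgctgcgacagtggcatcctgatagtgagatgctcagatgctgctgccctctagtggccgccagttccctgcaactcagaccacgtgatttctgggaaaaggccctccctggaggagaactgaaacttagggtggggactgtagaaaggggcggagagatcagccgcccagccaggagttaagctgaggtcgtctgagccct
IFIT1: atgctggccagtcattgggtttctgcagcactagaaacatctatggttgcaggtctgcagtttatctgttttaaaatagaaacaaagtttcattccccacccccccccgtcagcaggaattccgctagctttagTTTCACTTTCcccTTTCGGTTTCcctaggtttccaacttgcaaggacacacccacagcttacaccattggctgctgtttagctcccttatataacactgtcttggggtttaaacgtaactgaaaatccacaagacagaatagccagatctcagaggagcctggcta
OAS3: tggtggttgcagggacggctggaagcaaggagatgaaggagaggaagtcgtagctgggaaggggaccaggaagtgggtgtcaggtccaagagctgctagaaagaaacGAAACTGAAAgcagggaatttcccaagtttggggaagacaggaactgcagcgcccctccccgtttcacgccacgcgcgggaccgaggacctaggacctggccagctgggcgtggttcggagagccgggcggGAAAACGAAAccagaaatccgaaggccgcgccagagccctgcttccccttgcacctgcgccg

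IFIH1 held 3 matches, 2 of them sharing bases. ISG15 held 2 that share bases, IFIT1 and OAS3 held 2 apart from each other, CXCL10 held 1, and IRF9 held none but had 1 gamma-activated sequence and 2 GC boxes. The GC content of these windows ran from 41.3% for CXCL10 to 61.3% for OAS3. Genes with a core were found on both sides of the call at 80 nM, in 10 of the 15 genes called lower that had a window and in 9 of the 12 tested genes not called lower. A GC box was found in 10 of the 15 and in 6 of the 12, and a gamma-activated sequence in 5 and 3. These are matches of letters and no binding was measured.

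**Figure D1:**
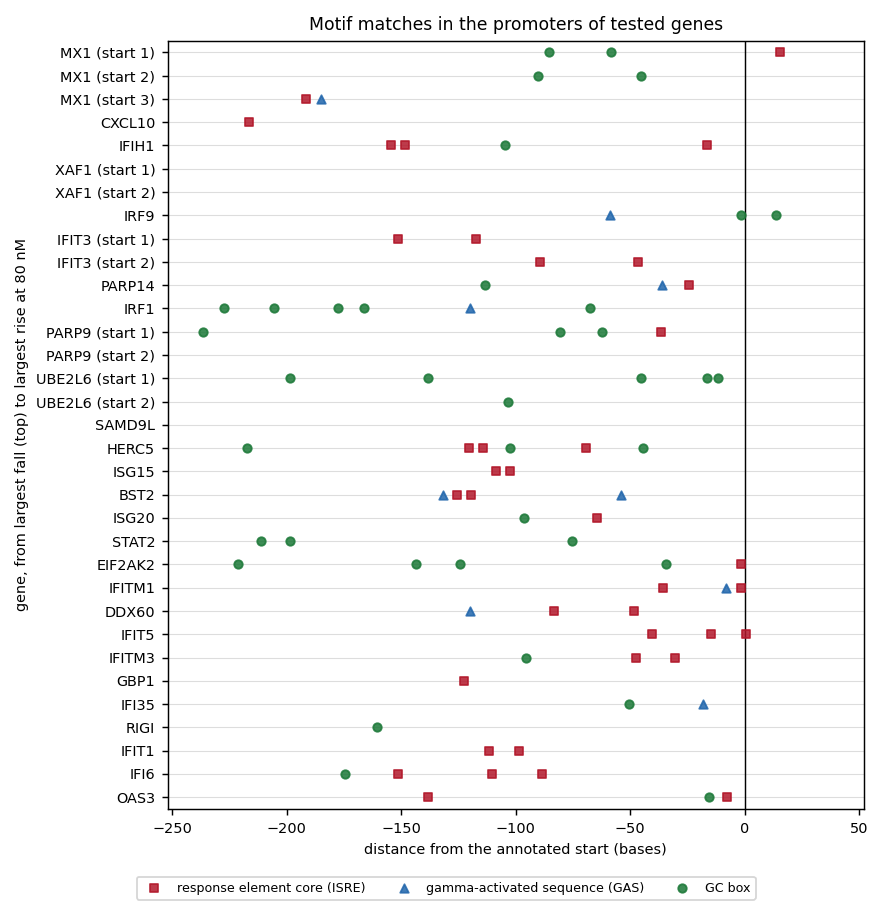
Position of motif matches in the promoter windows of the tested genes, as the distance in bases of each match from the annotated start (0, vertical line), 1 line for each window, from the gene with the largest fall at 80 nM (top) to the one with the largest rise (bottom). Squares are response element cores, triangles gamma-activated sequences and circles GC boxes. Cores occur along the whole list, in 10 of 15 genes called lower and 9 of 12 not called lower.

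Array quality was similar in all groups, with 24800 to 27123 probes well above background on each array. The untreated and the 8 nM arrays shared 1 slide and the 80 nM arrays were on another, so that an effect of 80 nM and a difference between slides cannot be told apart. The net signal of the negative control spots was 31.1 to 38.6 on the first slide and 22.1 to 22.7 on the second. The epithelial genes KRT8, KRT18, KRT19 and EPCAM were well above background on all 9 arrays. PAX8 was above it on 3 arrays, whereas WT1 and MUC16, both common in ovarian carcinoma, were above it on none. Of the blood cell markers, PTPRC and CD14 were above background on all 9 arrays, and of the plasmacytoid dendritic cell markers, which mark the main producers of interferon in blood, CLEC4C was above it on none, IL3RA on 1 and LILRA4 on 6. Levels below are log2 values relative to the 75th percentile of the same array, so that 0 is that percentile, and the values of a group are given in the order of replicates 1, 2 and 3. Arrays measure RNA in bulk, in which fewer cells and less RNA of a gene in each cell cannot be told apart. A gene was called when its level differed by at least 1.5-fold upwards or 0.67-fold downwards with a Benjamini-Hochberg adjusted p under 0.05 in limma's moderated test over all 21813 genes.

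The interferon-stimulated genes varied together among replicates before any comparison. Untreated replicate 1 had the highest level of its group for 33 of the 33 tested genes, against 40.4% of all genes, and 8 nM replicate 1 for 30 of 33, against 35.6%. The level on untreated replicate 1 lay above the mean of the other 2 untreated arrays by 0.04 to 1.10 on the log2 scale, with a median of 0.54. The same gap at 8 nM had a median of 0.36. No such order was seen at 80 nM, where replicates 1, 2 and 3 were highest for 10, 10 and 13 genes. The 75th percentile signal was the lowest of the first slide on untreated replicate 1 (832), but not on 8 nM replicate 1 (1144), and its part in the higher levels was not tested. Results are therefore given below also without these arrays.

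**Figure D2:**
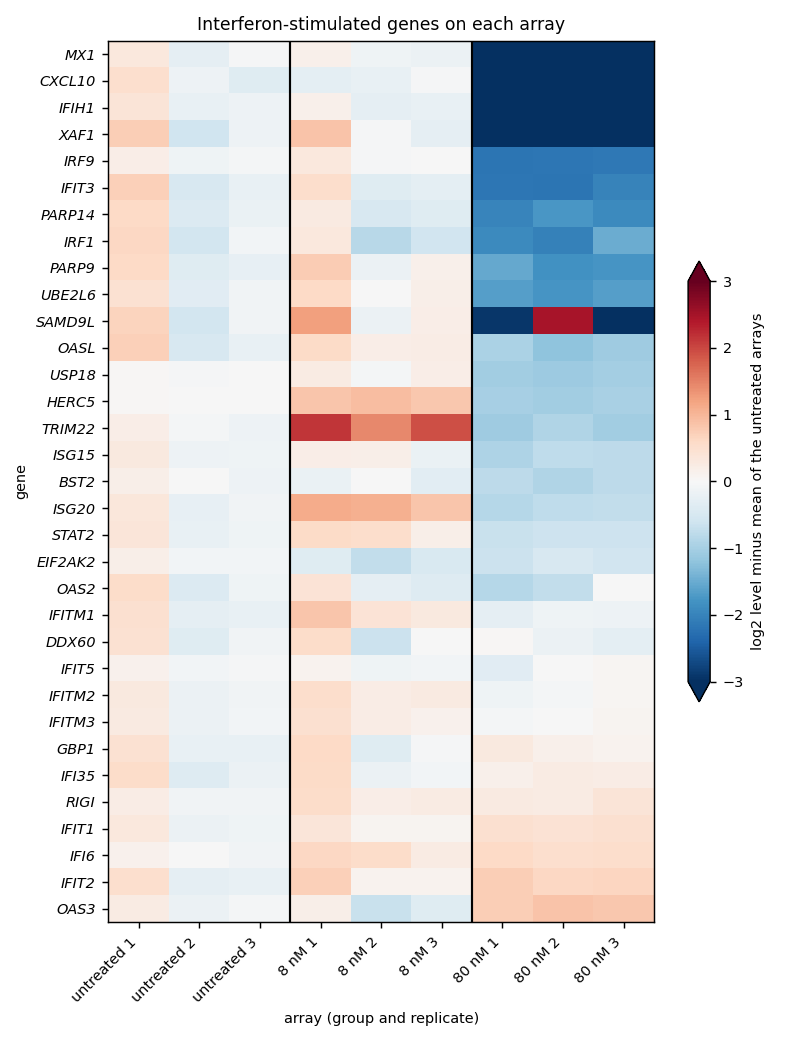
Heat map of the 33 tested interferon-stimulated genes (vertical) on the 9 arrays (horizontal), as log2 level minus the mean of the 3 untreated arrays, ordered by the change at 80 nM. Colours stop at -3 and 3. The 80 nM arrays are blue for the 18 genes called lower, SAMD9L stands among them with 1 red 80 nM array, and untreated replicate 1 is the highest untreated array for all 33 genes.

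At 8 nM, 3 of the 33 genes rose and none fell. HERC5, the ligase that attaches ISG15 to newly made proteins, ISG20, an exonuclease that degrades RNA, and TRIM22, a ubiquitin ligase that restricts viruses, all passed the limits. Of all genes tested, 5.13% were called at 8 nM, 3.71% as higher and 1.41% as lower, beside 9.09% of the tested interferon-stimulated genes as higher. At an unadjusted p under 0.05 in limma, with the same fold limit, 0 of them fell as well, beside 2.84% of all genes. The median change of the 33 genes was 0.13, and that of all genes -0.058.

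HERC5 had log2 levels of -3.26, -3.30 and -3.30 on the untreated arrays, -2.46, -2.36 and -2.47 at 8 nM and -4.28, -4.33 and -4.27 at 80 nM. All 8 nM arrays lay above and all 80 nM arrays below the untreated ones, with SDs of 0.024 to 0.065 within a group. The change at 8 nM was 0.86 (SE 0.064, adjusted p = 0.000168), a 1.81-fold rise, which was 0.57 and under the fold limit with the normexp background correction. ISG20 had log2 levels of -1.40, -1.98 and -1.83 on the untreated arrays, -0.61, -0.67 and -0.90 at 8 nM and -2.58, -2.49 and -2.47 at 80 nM. Again the groups did not overlap, and the change at 8 nM was 1.01 (SE 0.15, adjusted p = 0.00417), a 2.01-fold rise. TRIM22 had log2 levels of -4.76, -5.03 and -5.12 on the untreated arrays, -2.83, -3.52 and -3.03 at 8 nM and -6.03, -5.86 and -6.02 at 80 nM. TRIM22 had the largest change at 8 nM of the 33 genes, 1.84 (SE 0.17, adjusted p = 0.000533), a 3.58-fold rise that was 0.97 with normexp and still called.

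The other 30 tested genes changed at 8 nM by -0.52 to 0.51 and were not called. EIF2AK2, the kinase that halts translation when it binds double-stranded RNA, had a change of -0.52 (SE 0.12, adjusted p = 0.0222), and IFI6, a mitochondrial protein, 0.47 (SE 0.11, adjusted p = 0.0258). Both passed the test but not the fold limit. The second EIF2AK2 probe differed by -0.61 (adjusted p = 0.208). Without untreated replicate 1, 6 genes were called higher at 8 nM, with IFITM1 at 0.75, OASL at 0.68 and STAT2 at 0.61 in addition. Without both replicate 1 arrays, 4 were called higher, with IFITM1 at 0.59 in addition, and without 8 nM replicate 1 EIF2AK2 was called lower at -0.60.

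At 80 nM, 18 of the 33 genes fell and 2 rose against untreated cells. The fallen genes were STAT2, IRF1 and IRF9 among the transcription factors, IFIH1 among the sensors, IFIT3, OASL and MX1, the 4 tested genes of the ISG15 system (ISG15, UBE2L6, HERC5 and USP18), BST2, PARP9 and PARP14, ISG20 and TRIM22, and CXCL10 and XAF1. OAS3 and IFIT2 rose, though neither was called with scaling to the spike-in controls. Of all genes tested, 34.3% were called at 80 nM, 18.4% as higher and 15.9% as lower, beside 6.06% and 54.5% of the tested interferon-stimulated genes. Their median change was -0.82, and that of all genes 0.078. The 80 nM arrays lay wholly below the untreated ones for 19 genes, or 57.6%, and for 31.7% of all genes. The comparisons at 8 nM and 80 nM share the untreated arrays.

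Some of the fallen genes reached background at 80 nM, where a change is a bound. MX1, TRIM22 and CXCL10 were well above background on no 80 nM array, and IFIH1, OASL and XAF1 on 1 of the 3. The remaining 12 called lower were above it on all arrays. Of the 26 genes measured above background in each untreated and each 80 nM sample, 12 were called lower and 2 higher. The share of all genes called under this filter was not computed. Without untreated replicate 1, 17 genes were called lower and 4 higher, STAT2 being lost at -0.47 and IFI6 and IFIT1 added at 0.61 and 0.62. Scaling to the spike-in controls moved the median of all genes from 0.078 to -0.20 and the share of lower calls from 46.4% to 73.1%, and 19 interferon-stimulated genes were then called lower and 0 higher.

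**Figure D3:**
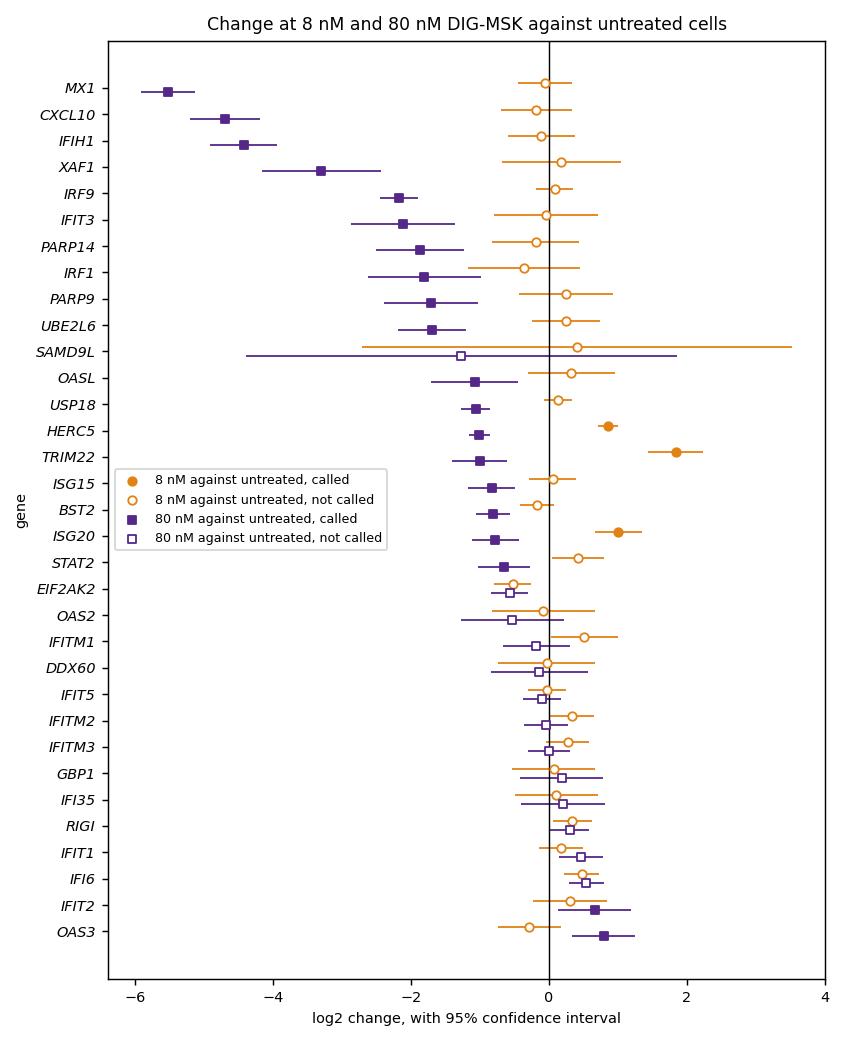
Log2 change of each of the 33 tested genes at 8 nM (circles) and 80 nM (squares) against untreated cells (horizontal axis), with bars for the 95% confidence interval of limma's fit. Filled symbols mark called genes. The 18 genes called lower at 80 nM lie between -5.52 and -0.65, and the 3 genes called at 8 nM, HERC5, TRIM22 and ISG20, lie on opposite sides of 0 at the 2 doses.

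Of the transcription factors that carry the interferon signal, all 3 that were tested fell. IRF9, which gives the STAT complex its DNA specificity, had log2 levels of 1.32, 1.0 and 1.07 on the untreated arrays, 1.44, 1.09 and 1.11 at 8 nM and -1.07, -1.04 and -1.02 at 80 nM. The 80 nM arrays lay close together and over 2 log2 units below all others. The change was -2.17 (SE 0.12, adjusted p = 2.13e-06), a 4.51-fold fall. IRF1, a factor induced early by interferon gamma, had levels of 0.39, -0.77 and -0.30 on the untreated arrays, 0.080, -1.05 and -0.79 at 8 nM and -2.14, -2.25 and -1.71 at 80 nM. Its untreated and 8 nM replicates were widely spread, yet all 80 nM arrays were lower. It fell by 1.81 on the log2 scale (SE 0.36, adjusted p = 0.00267). STAT2, the partner of IRF9, had levels of 2.30, 1.70 and 1.81 on the untreated arrays, 2.52, 2.46 and 2.11 at 8 nM and 1.26, 1.30 and 1.30 at 80 nM. The change of STAT2 was smaller, -0.65 (SE 0.17, adjusted p = 0.0097), just past the fold limit and lost at -0.47 without untreated replicate 1. IRF7, which drives interferon alpha production, was well above background on no array.

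Among the sensors of foreign nucleic acid, IFIH1 fell and RIGI, EIF2AK2 and DDX60 were not called. IFIH1, also called MDA5, senses long double-stranded RNA. IFIH1 had log2 levels of -0.65, -1.25 and -1.19 on the untreated arrays, -0.87, -1.29 and -1.26 at 8 nM and -5.27, -5.81 and -5.29 at 80 nM. All 80 nM arrays were near background. IFIH1 fell by 4.43 on the log2 scale (SE 0.21, adjusted p = 1.08e-06), 21.5-fold as measured, with a change of -2.53 with normexp. RIGI, the sensor of short RNA with a free triphosphate end, had a change of 0.30 (SE 0.12, adjusted p = 0.0652) and a 95% interval of 0.017 to 0.59, and its second probe differed by -0.061 (adjusted p = 0.858). EIF2AK2 had a change of -0.57 (SE 0.12, adjusted p = 0.00344), 1.48-fold lower and short of the limit, which it passed at -0.60 or below when untreated replicate 2 or 3 or 80 nM replicate 2 was left out, and at -0.84 with spike-in scaling. The second EIF2AK2 probe differed by -0.36 (adjusted p = 0.334). DDX60, a helicase linked to RIG-I signalling, changed by -0.14 (-0.85 to 0.57, 95% interval).

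The IFIT family, whose proteins bind foreign RNA, was divided. IFIT3 had log2 levels of 0.57, -0.63 and -0.36 on the untreated arrays, 0.39, -0.51 and -0.44 at 8 nM and -2.31, -2.33 and -2.14 at 80 nM. All 80 nM arrays lay below all others, and IFIT3 fell by 2.11 (SE 0.33, adjusted p = 0.000789), or 4.33-fold. IFIT2 had levels of -1.19, -1.96 and -1.90 on the untreated arrays, -0.97, -1.58 and -1.57 at 8 nM and -0.94, -1.07 and -1.04 at 80 nM. It rose by 0.66 (SE 0.23, adjusted p = 0.0361), a rise that its second probe did not show, with a difference of -0.075 (adjusted p = 0.905). The call was lost at 0.39 with spike-in scaling, at 0.29 with the mean of both probes, at 0.66 with no filter on dim probes, at 0.53 without untreated replicate 2, at 0.56 without untreated replicate 3, and at 0.63, 0.69 and 0.68 without 80 nM replicate 1, 2 or 3. IFIT1 had a change of 0.46 (SE 0.14, adjusted p = 0.0196), under the fold limit, and IFIT5 of -0.10 (-0.38 to 0.18, 95% interval).

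The OAS enzymes, which sense double-stranded RNA and make the oligoadenylates that activate RNase L, were divided as well. OAS3 had levels of -2.42, -2.84 and -2.71 on the untreated arrays, -2.49, -3.33 and -3.01 at 8 nM and -1.93, -1.81 and -1.86 at 80 nM. All 80 nM arrays lay above the others, and OAS3 rose by 0.79 (SE 0.20, adjusted p = 0.00914), or 1.73-fold, which was 0.52 and not called with spike-in scaling (adjusted p = 0.195). OASL, an enzymatically inactive member that enhances RIG-I signalling, had levels of -3.63, -4.83 and -4.56 on the untreated arrays, -3.77, -4.14 and -4.13 at 8 nM and -5.29, -5.55 and -5.41 at 80 nM. OASL fell by 1.08 (SE 0.28, adjusted p = 0.0101), a call lost at -0.31 with normexp and at -0.53 in the deposited log2 values. OAS2 changed by -0.53 (-1.28 to 0.22, 95% interval) on its brightest probe and by 0.47 on another (adjusted p = 0.0937), so its probes differed in sign. OAS1 was above background on no array.

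MX1, a dynamin-like GTPase that blocks the replication of many viruses, showed the largest change of the 33 genes. MX1 had log2 levels of -1.65, -2.23 and -2.0 on the untreated arrays, -1.82, -2.10 and -2.14 at 8 nM and -7.24, -7.61 and -7.60 at 80 nM. The 80 nM arrays were all at background. MX1 fell at least 15.4-fold with a fitted change of -5.52 (SE 0.17, adjusted p = 1.01e-07), and the change with normexp was -1.99. GBP1, a guanylate-binding protein that attacks the vacuoles of intracellular microbes, changed by 0.18 (-0.42 to 0.79, 95% interval). MX2 and GBP2 passed background on too few arrays to be tested.

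All 4 tested genes of the ISG15 conjugation system fell. ISG15, a ubiquitin-like protein attached to other proteins, had levels of 4.88, 4.42 and 4.46 on the untreated arrays, 4.78, 4.75 and 4.40 at 8 nM and 3.66, 3.82 and 3.79 at 80 nM. The change was -0.83 (SE 0.15, adjusted p = 0.00157), a 1.78-fold fall. UBE2L6, the enzyme that carries ISG15 to its ligase, had levels of 2.19, 1.41 and 1.63 on the untreated arrays, 2.34, 1.72 and 1.91 at 8 nM and 0.082, -0.038 and 0.088 at 80 nM. The 80 nM arrays were tightly grouped below all others, and UBE2L6 fell by 1.70 (SE 0.21, adjusted p = 0.000241), or 3.25-fold. USP18, the protease that removes ISG15 and restrains receptor signalling, had levels of 0.56, 0.49 and 0.52 on the untreated arrays, 0.78, 0.46 and 0.73 at 8 nM and -0.53, -0.57 and -0.50 at 80 nM. It fell by 1.06 (SE 0.091, adjusted p = 2.7e-05). HERC5, which had risen at 8 nM, fell at 80 nM by 1.01 (SE 0.064, adjusted p = 5.13e-06), a change of -0.44 and under the fold limit with normexp. HERC6 was not tested.

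**Figure D4:**
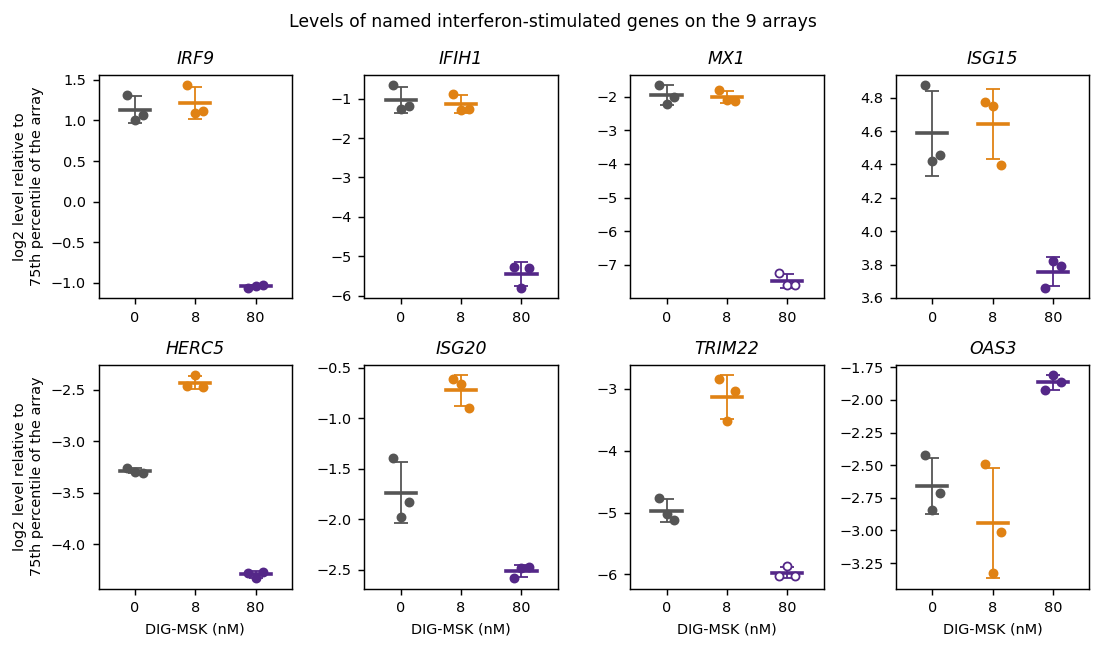
Log2 level relative to the 75th percentile of the array (vertical axis, with its own range in each panel) of 8 interferon-stimulated genes at 0, 8 and 80 nM DIG-MSK. Points are single arrays, long bars group means and thin bars 1 SD (n = 3), and open points mark groups in which no array was well above background. IRF9, IFIH1, MX1 and ISG15 are lower at 80 nM and overlap at 0 and 8 nM, HERC5, ISG20 and TRIM22 are highest at 8 nM, and OAS3 is highest at 80 nM.

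Of the membrane restriction factors, BST2 fell and the 3 IFITM genes were not called. BST2, or tetherin, holds new virus particles on the cell surface, and had levels of 4.88, 4.70 and 4.56 on the untreated arrays, 4.51, 4.70 and 4.41 at 8 nM and 3.94, 3.82 and 3.94 at 80 nM. It fell by 0.82 (SE 0.11, adjusted p = 0.000318), or 1.76-fold. IFITM1, IFITM2 and IFITM3 block the entry of viruses. Their changes were -0.18 (-0.67 to 0.30), -0.044 (-0.36 to 0.28) and 0.0055 (-0.30 to 0.31, all 95% intervals). A fall of IFITM1, IFITM2 or IFITM3 as large as that of BST2 was outside these intervals. The IFITM genes are related paralogs, and how far their probes share signal was not tested.

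The ADP-ribosyltransferases PARP9 and PARP14, which act together in interferon responses, both fell. PARP9 had levels of 0.13, -0.84 and -0.72 on the untreated arrays, 0.28, -0.65 and -0.33 at 8 nM and -2.01, -2.30 and -2.24 at 80 nM. PARP14 had levels of 1.56, 0.56 and 0.76 on the untreated arrays, 1.23, 0.47 and 0.59 at 8 nM and -1.01, -0.79 and -0.94 at 80 nM. In both genes the 80 nM arrays lay below all others. The changes were -1.71 (SE 0.30, adjusted p = 0.00137) and -1.87 (SE 0.28, adjusted p = 0.000582). ISG20 fell by 0.78 (SE 0.15, adjusted p = 0.00232), a call lost at -0.50 with normexp. TRIM22 fell at least 1.83-fold to background with a fitted change of -1.0 (SE 0.17, adjusted p = 0.00139), a call lost at -0.20 with normexp and at -0.41 in the deposited log2 values. SAMD9L, which restricts poxviruses, had 80 nM levels of -7.20, -1.81 and -7.66, with replicate 2 far above the other 2. Its change was -1.27 (SE 1.36, adjusted p = 0.448), and -3.14 and called without 80 nM replicate 2 (adjusted p = 0.00127).

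The chemokine gene CXCL10, which attracts T cells, fell to background at 80 nM. It had levels of -2.59, -3.27 and -3.46 on the untreated arrays, -3.40, -3.33 and -3.14 at 8 nM and -7.91, -7.98 and -7.53 at 80 nM. It fell at least 6.96-fold with a fitted change of -4.70 (SE 0.22, adjusted p = 1.02e-06), with a change of -1.18 with normexp. Its second probe was above background on no 80 nM array either. XAF1, which counters an inhibitor of apoptosis, had levels of -1.81, -3.13 and -2.69 on the untreated arrays, -1.69, -2.59 and -2.81 at 8 nM and -5.93, -5.58 and -6.01 at 80 nM. It fell by 3.30 (SE 0.38, adjusted p = 0.000136), with a change of -1.61 with normexp. Its second probe was above background on all untreated and on no 80 nM arrays. The IFI genes were not called, with IFI6 at 0.54 (SE 0.11, adjusted p = 0.0033) and IFI35 at 0.21 (-0.40 to 0.81, 95% interval).

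Between 80 nM and 8 nM, 19 of the 33 genes were lower and 1 higher. The 18 genes that fell against untreated cells were all lower, IFITM1 joined them at -0.69 (SE 0.21, adjusted p = 0.0221), and OAS3 was higher at 1.08 (SE 0.20, adjusted p = 0.00205). Of all genes tested, 32.8% were called, 18.9% as higher and 13.9% as lower. The median change was -1.07, and that of all genes 0.12. The 3 genes that rose at 8 nM also fell at 80 nM, so their differences here are larger by arithmetic and add no further support. TRIM22 was lower by at least 6.54-fold, HERC5 by 3.64-fold and ISG20 by 3.45-fold. STAT2, which was borderline against untreated cells, was lower by 2.1-fold (adjusted p = 0.000761). Without both replicate 1 arrays, 18 genes were lower and 1 higher.

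Of 99 further genes of the interferon pathway, in 5 lists, 94 had probes and 67 were tested. At 8 nM 2 were called higher and 0 lower, beside 3.71% and 1.41% of all genes tested. With unadjusted p in limma these were 4 and 0, beside 4.25% and 2.84%. At 80 nM 10 were called higher and 25 lower, beside 18.4% and 15.9% of all genes tested. The median change was -0.043, beside 0.078 for all genes. The counts of single lists below are to be read beside the same shares. At 8 nM the calls were APOBEC3F, a cytidine deaminase that restricts retroviruses, at 1.29 (SE 0.088, adjusted p = 0.000111), and SECTM1, a secreted ligand of T cells, at 1.21 (SE 0.21, adjusted p = 0.00855). The call of APOBEC3F rests on 1 of its 2 probes. The second, also above background on all arrays, gave 0.23 there (adjusted p = 0.354), and the probes took opposite signs at the higher dose, with 0.58 and -0.81. SECTM1 then fell at 80 nM by 1.62 (adjusted p = 0.000283), the same course as HERC5, ISG20 and TRIM22, with 1 of the 3 arrays above background.

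Of the 17 interferon genes with probes, 13 were above background on no array, IFNB1 among them. IFNA4 and IFNL2 were tested and not called at 80 nM, and IFNG, the gene of interferon gamma, fell. IFNG had log2 levels of -2.29, -2.41 and -2.47 on the untreated arrays, -1.75, -2.07 and -1.85 at 8 nM and -7.84, -7.82 and -7.76 at 80 nM. IFNG was detected in each untreated and 8 nM sample but in no 80 nM sample, and fell at least 11.4-fold with a fitted change of -5.42 (SE 0.10, adjusted p = 5.57e-09). The calls of IFNG rest on 1 probe, and CD3E, a marker of the T cells that usually make it, was above background on 1 of the untreated, 0 of the 8 nM and 2 of the 80 nM arrays.

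Of the 10 tested genes listed with the receptors and kinases, 4 rose and 1, not reported here, fell at 80 nM. The receptor genes IFNAR1 and IFNAR2 changed by 0.056 (-0.13 to 0.25) and 0.16 (-0.076 to 0.40), and JAK1 by -0.17 (-0.67 to 0.32, all 95% intervals). TYK2, the other kinase of that receptor, rose by 0.61 (SE 0.10, adjusted p = 0.00105), JAK2 by 0.77 (adjusted p = 3.24e-05), and IL10RB, a subunit of the interferon lambda receptor, by 1.11 (adjusted p = 1.2e-05). With scaling to the spike-in controls, 6 pathway genes instead of 10 were called higher at 80 nM. Which of the single rises lost their call is not reported here.

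Of the 12 tested sensors and adaptors 1 rose and 3 fell, and of the 9 regulators 1 rose and 3 fell. MAVS, the mitochondrial adaptor of RIG-I and MDA5, changed by -0.87 (SE 0.092, adjusted p = 8.57e-05) on its brightest probe. Its other probes, also above background on all arrays, did not show a fall, with differences of -0.092 (adjusted p = 0.555) and 0.33 (adjusted p = 0.00907). Of the 33 further interferon-stimulated genes, 17 fell and 4 rose. TDRD7, which represses autophagy in infected cells, fell by 2.77 (adjusted p = 1.04e-06) and BATF2, a transcription factor, fell by 3.66 (adjusted p = 1.31e-05). CXCL11, a chemokine of the same receptor as CXCL10, fell at least 5.47-fold to background (adjusted p = 1.18e-06). SP110 and PML, both nuclear body proteins, had changes of -1.51 (adjusted p = 0.000103) and -0.75 (adjusted p = 8.02e-05). A second PML probe differed by -0.996 (adjusted p = 0.00508) and another by -0.27 (adjusted p = 0.568). PLSCR1, a phospholipid scramblase that binds DNA and restricts viruses, rose instead, with levels of -2.49, -2.90 and -3.02 on the untreated arrays, -2.69, -3.02 and -3.10 at 8 nM and -0.49, -0.75 and -0.48 at 80 nM. All 80 nM arrays lay above the rest, a rise of 2.23 (SE 0.16, adjusted p = 1.18e-05).

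**Figure D5:**
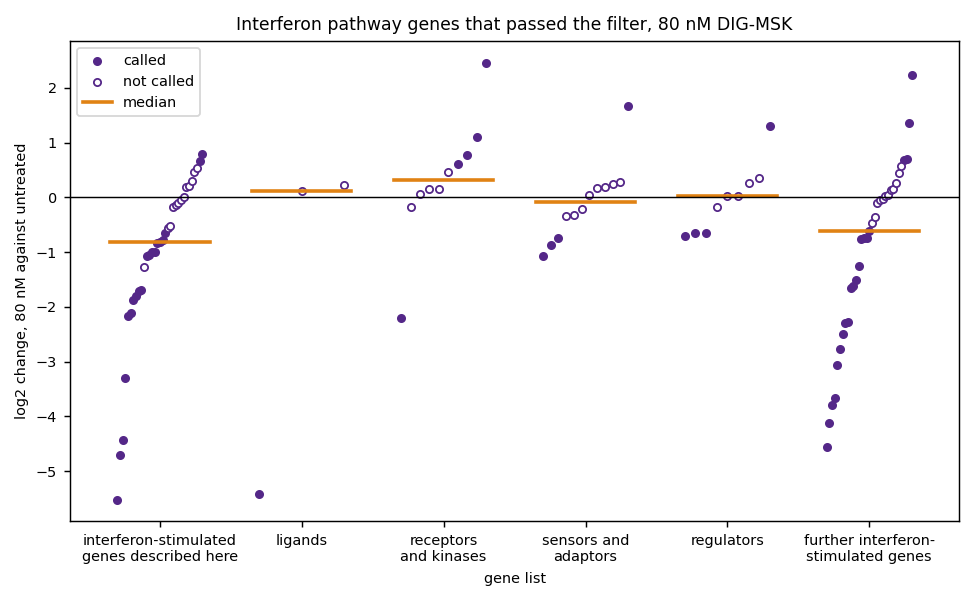
Log2 change at 80 nM against untreated cells (vertical axis) of every tested gene, 1 point each, in the 33 interferon-stimulated genes and in the 5 further lists of the pathway (horizontal axis), sorted within a list. Filled points are called and bars are medians. Falls of more than 2 log2 units occur among the 33 genes, the further interferon-stimulated genes and IFNG. The medians of the receptor, sensor and regulator lists lie between -0.083 and 0.31, and 1 gene of the receptor list was called lower.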

How the data were processed

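RNA from 9 samples was hybridised to one-colour Agilent SurePrint G3 arrays, and the spot intensity files deposited by the authors hold background-subtracted processed signals from Feature Extraction 10.7.3.1, per the file headers. A table of log2 values, also deposited by the authors, correlated at 0.9986 or more with log2 median signals and served as an alternative. The authors' methods name background subtraction and lowess normalization. Precision is limited by the 3 arrays in each group.

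Outlier and control spots were left out, spots of a probe were averaged, and log2 of the 75th percentile of each array was subtracted. A gene was represented by its brightest passing probe. RefSeq transcripts named 25715 of 42405 probes, the others kept the identifier of the array design, and 26433 probes passed the filter. All 9 arrays entered 1 fit in limma 3.58.1 (R 4.3.3), with contrasts of 8 nM and 80 nM against untreated and of 80 nM against 8 nM and Benjamini-Hochberg adjustment over 21813 genes. The study states its p limit without saying whether it was adjusted, and unadjusted p was an alternative. Where no array of a group was above background, the fold is a bound against the lowest signal well above background on those arrays, or the probe's own signal if higher. The fits were tested on simulated data.

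Genes and lists were chosen with earlier results of these data known. Every interferon-stimulated gene was accounted for. The 14 called in either comparison with untreated cells with the lowest adjusted p were to be given on every array, to which the other 6 called were added, with STAT2, IRF9, IRF1, IRF7 and ISG15 named in any case. Of the pathway genes, IFNB1, IFNAR1, IFNAR2, JAK1 and TYK2 and the 10 called with the lowest adjusted p were named, and APOBEC3F and SECTM1 were added after their values were seen, as the calls at 8 nM. Some genes of the pathway and marker lists are not reported here. Same-numbered untreated and 8 nM samples deviated together from their group means over all genes (r of 0.11, 0.10 and 0.16), and those of 80 nM did not (-0.12 to 0.016). Values as large were seen between samples of unlike number, 0.12 for 8 nM replicate 1 with 80 nM replicate 2 and 0.13 for 8 nM replicate 2 with 80 nM replicate 3. Pairing by number was therefore not established. Alternatives were other background corrections, scalings, filters, probe rules, call limits, a replicate block and leaving out arrays.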

Additional observations from a re-analysis of the deposited data

How the results depend on the processing

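Of the 18 interferon-stimulated genes called lower at 80 nM, 13 kept the call under all of the 24 alternatives that gave them a value. The other 5 (STAT2, OASL, HERC5, ISG20 and TRIM22) lost it under at least 1. Among the alternatives, unadjusted p and no fold limit only loosen the rule, so no call could be lost under them. The replicate block changed no count of calls, with 3 higher and 0 lower at 8 nM, 2 higher and 18 lower at 80 nM, and 1 higher and 19 lower between the doses. A block for the slide was not run, since no slide holds 80 nM and other arrays together. Median log2 changes at 80 nM were -0.44 with normexp, -1.09 with spike-in scaling, -0.54 in the deposited log2 values and -0.55 with genes above background on all 9 arrays, and between the doses -0.68, -1.43, -0.76 and -0.55, with -0.69 without a filter and -0.79 with each probe separate. Counts of interferon-stimulated genes called higher at 80 nM were 0 with spike-in scaling, 1 without a filter, 1 with the mean of a gene's probes and 4 without a fold limit, and between the doses 0 with spike-in scaling and 3 without a filter. At 8 nM 1 was called lower without a filter and 1 without a fold limit. Of the pathway genes, the higher calls at 8 nM were 1 with genes above background on all arrays, 4 with unadjusted p and 6 without a fold limit, and the lower calls 1 without a filter and 3 without a fold limit. At 80 nM 6 were higher with spike-in scaling and 17 without a fold limit, and between the doses 3 with normexp, 2 with spike-in scaling, 4 in the deposited values, 5 with all arrays above background and 17 without a fold limit. SAMD9L reversed to 0.089 at 80 nM with normexp. The share of lower among all called genes went with spike-in scaling from 27.5% to 6.81% at 8 nM and from 42.3% to 79.8% between the doses. Leaving out 1 array in turn gave 3 to 6 higher and 0 to 1 lower interferon-stimulated genes at 8 nM, 1 to 4 and 17 to 20 at 80 nM, and 1 and 18 to 20 between the doses, with medians of -0.013 to 0.33, -0.90 to -0.68 and -1.16 to -0.86. For the pathway genes these counts were 2 to 4 and 0 to 1, 10 to 11 and 21 to 25, and 6 to 8 and 20 to 24. The alternative without both replicate 1 arrays, and the counts for the pathway genes, were chosen after seeing the data. The causes of these differences were not tested. Levels near background limit the size of the falls of MX1, CXCL10, IFIH1 and XAF1, which kept their direction.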
